A study of Mus musculus with 32 samples.

Results

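The subject here is a set of 35 skeletal muscle genes, read in RNA of whole marrow from the mouse femur, a tissue made mostly of blood-forming cells. The set was taken as a named list, and the list was chosen with earlier results of these data known. It held 14 genes of fast fibers, 7 genes of slow fibers and 14 genes used by both fiber types, out of 41388 genes in each table. Mice of the C57BL/6 background carried iDTR, a diphtheria toxin receptor allele that Cre switches on (genotype "DTR flox"). The DTRADQ mice carried adiponectin-Cre as well, which is active in fat cells and in stromal cells of the marrow, and their Cre-negative littermates, which also carry DTR flox, are called Con. Animals 2 months old received no diphtheria toxin (DT), or 100 ng of DT per mouse each day for 1, 2 or 3 days. This gave 8 groups of 4 mice and 32 libraries, 1 per mouse, and replicate numbers below name a library within its group.

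A skeletal muscle fiber is packed with sarcomeres, in which myosin heads pull on actin filaments when calcium binds the troponin complex. Fast and slow fibers build this machine from different genes of the same families: fast fibers use Myh4, Myh1 and Myh2 as myosin heavy chains with fast light chains and troponins, and slow fibers use Myh7 with slow ones. Calcium release through Ryr1, phosphocreatine turnover by Ckm and glycogen breakdown by Pygm serve both. The list asks how much RNA of such fibers the marrow libraries held, in which mice, and whether fast and slow genes moved together. In bulk RNA, a change in the number of cells of a type and a change in RNA per cell cannot be told apart.

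Totals ran from 8966165 to 22929352 counts per library, and the day 3 libraries were sequenced on lane 8 per the labels while the other 24 name all lanes. Levels below are CPM (each count as a share of its library, scaled to a fixed total) after TMM scaling, which corrects for a few very abundant genes, and RPKM is the same value per kilobase of gene length. Con replicates 3 and 4 without DT stood apart: they were the shallowest libraries, with TMM factors of 0.7263 and 0.5647, and their 10 marrow blood cell markers summed to 144044 and 220360 CPM against 39461 to 99203 CPM in the other 30 libraries. Results that use them are therefore also given without them. The 6 fat cell genes, which mark the targeted cells, summed at day 3 to 0.330 to 0.709 CPM for DTRADQ and 36.8 to 62.0 CPM for Con, and without DT to 31.1 to 50.3 and 57.0 to 155 CPM. Adipoq and Cfd made up most of these sums, while Plin1, Lep and Ucp1 averaged at most 0.0834 CPM in any group.

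All 35 genes together took between 0.0070% and 0.0840% of the counts of a library, so muscle RNA was a trace of each sample. The highest share was in DTRADQ replicate 2 at day 3. Per kilobase and averaged over the 32 libraries, the most abundant members were the fast light chain Mylpf at 34.3 RPKM, the sarcomeric actin Acta1 at 14.4 RPKM, the slow troponin Tnnt1 at 8.53 RPKM and the muscle enolase Eno3 at 7.99 RPKM. At the other end were the heavy chains Myh2 at 0.00872 RPKM and Myh7 at 0.00323 RPKM. For 9 genes every library lay above 0.706 CPM, the level that the filter on low counts asked for, and 21 genes had 1 or more libraries with no read. The filter needed 4 libraries above that level. It passed 26 members (11 fast, 4 slow, 11 shared) and left 9 untested, namely Myh1, Myh2, Tnnc2, Myh7, Myl3, Mybpc1, Cacna1s, Tcap and Des. Myot and Trdn had only 3 libraries above it outside DTRADQ day 3, so they passed through the group in which they were high.

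Summed over the 14 fast genes, the DTRADQ day 3 libraries held 72.8, 447, 85.8 and 181 CPM in replicates 1 to 4. The Con day 3 libraries held 46.1, 39.8, 29.7 and 35.5 CPM, and all 4 lay below all 4 DTRADQ libraries. High sums were not limited to day 3: without DT, DTRADQ held 42.7, 31.5, 90.1 and 256 CPM and Con held 41.9, 61.5, 91.8 and 144 CPM. The day 1 and day 2 libraries lay from 20.1 to 49.8 CPM, except Con replicate 2 at day 2 at 114 CPM. The 14 shared genes were high in the same DTRADQ libraries, with day 3 sums of 93.4, 374, 81.3 and 173 CPM. Their Con day 3 sums were 29.7 to 51.3 CPM, and DTRADQ replicate 4 without DT held 187 CPM. Con replicate 2 at day 2 held 98.1 CPM. Con replicates 3 and 4 without DT, with high fast sums, held only 38 and 47.2 CPM of the shared genes. Mylpf alone made up 60.3 and 82 CPM of their fast sums. The low TMM factors of these 2 libraries, 0.7263 and 0.5647, also raised their levels. All 35 genes took 0.0119% and 0.0129% of their counts, beside 0.0098% and 0.0106% in Con replicates 1 and 2 without DT. In DTRADQ at day 3 the share was 0.0186% to 0.0840%. The sum of the 7 slow genes stayed between 17.0 and 38.0 CPM in all 32 libraries. Tnnt1 and Myl2 made up 85.8% to 96.6% of it, and the other 5 slow genes summed to between 0.991 and 4.85 CPM, highest in DTRADQ replicate 1 at day 3.

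**Figure D1:**
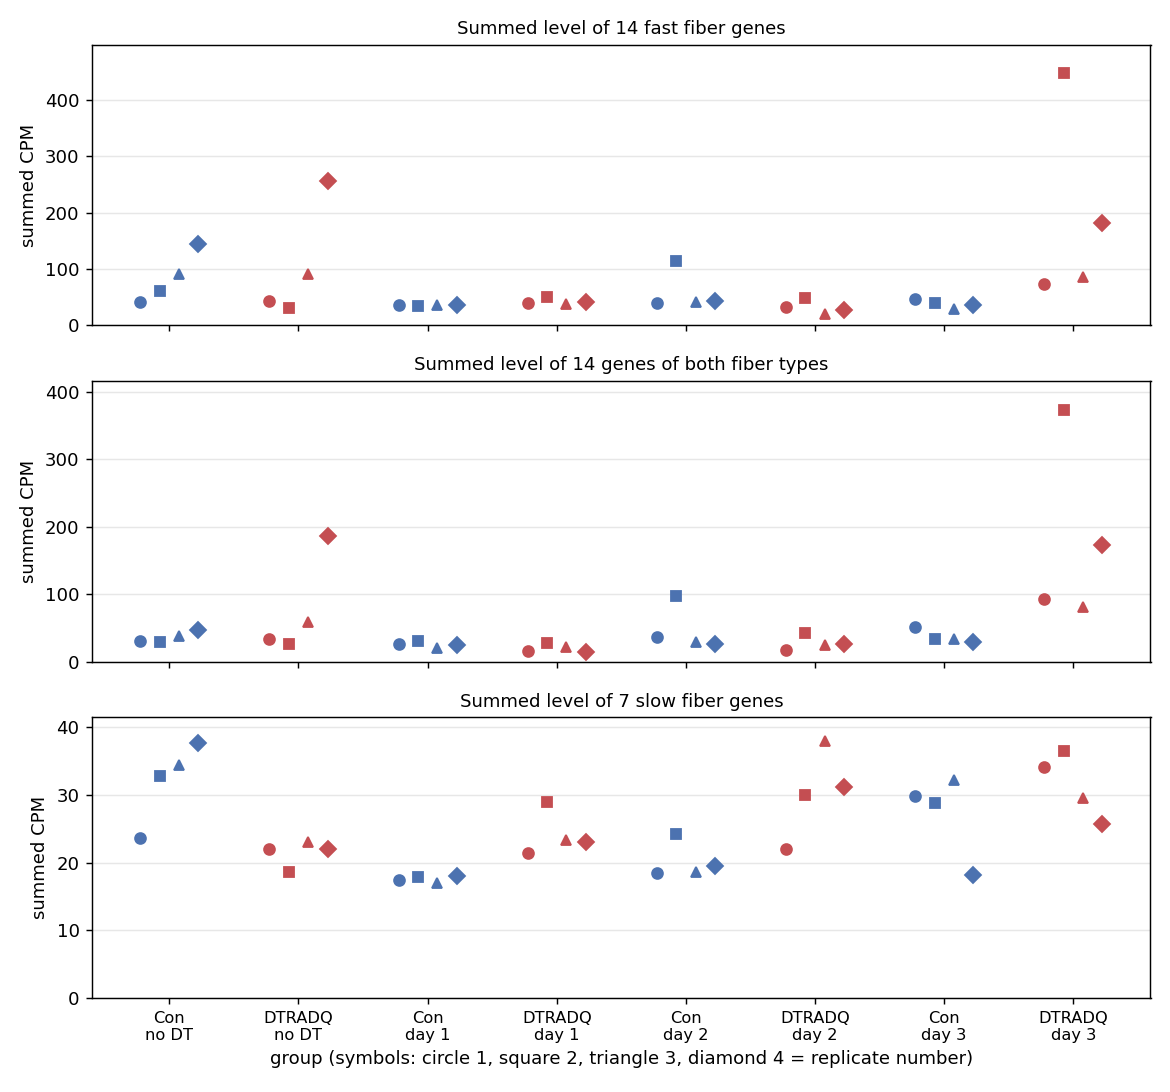
Summed level (TMM-scaled CPM, linear axes from 0) of the fast, shared and slow genes in each of the 32 libraries, by group, with Con in blue, DTRADQ in red and the replicate number shown by the symbol. The fast and shared sums both peak in DTRADQ replicate 2 at day 3, at 447 CPM for the fast genes. The slow sums stay between 17.0 and 38.0 CPM.

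At day 3 of DT, 17 of the 26 tested members were higher in DTRADQ than in Con and none was lower (edgeR quasi-likelihood test, Benjamini-Hochberg adjusted p under 0.05). Among all 14527 genes tested, 22.9% were called in either direction and 8.80% were called higher. The 17 were 10 of the 14 fast genes, 7 of the 14 shared genes and 0 of the 7 slow genes, of which 11, 11 and 4 were tested. Myot and Trdn, 2 of the 7 shared genes, entered the test only through the DTRADQ day 3 libraries in which they were high, and without them 15 of 24 members and 5 of 9 shared genes were higher. The median log2 change was 3.03 for the tested fast genes, 1.30 for the shared genes (0.95 without Myot and Trdn) and 0.14 for the slow genes, beside -0.02 for all genes. In 15 of the 26, or 14 of 24 without Myot and Trdn, the 4 DTRADQ libraries all lay above the 4 Con libraries, which 14.9% of all genes also did. With the library totals alone as the scale, which moves the median of all genes to -0.18, 15 of the 26 were still called higher and none lower.

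Acta1, the actin of the skeletal muscle thin filament (chr8:123891767-123894736 in GRCm38, GENCODE annotation, minus strand), showed the largest range among the members above 0 in every library. Its day 3 levels were 42.9, 241, 36.2 and 97.1 CPM in DTRADQ against 16.3, 4.84, 1.22 and 1.72 CPM in Con. The groups did not overlap, although the lowest DTRADQ and the highest Con library differed by far less than the DTRADQ libraries differed among themselves. The log2 change was 4.11 (SE 1.06, adjusted p = 0.0051 by edgeR). Over all 32 libraries Acta1 ran from 0.489 to 241 CPM, and without DT it was at 7.31, 1.81, 21.8 and 87.4 CPM in DTRADQ and at 0.625, 1.43, 4.36 and 6.13 CPM in Con. DTRADQ replicate 4 without DT thus held more Acta1 than replicates 1 and 3 of DTRADQ at day 3.

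Ckm, the creatine kinase that regenerates ATP in muscle (chr7:19411094-19421583), read 6.32, 45, 8.86 and 18 CPM in DTRADQ at day 3. Its Con levels were 1.66, 1.40, 0.181 and 0.614 CPM, so that the lowest DTRADQ library was above all of them. The log2 change was 4.32 (SE 0.94, adjusted p = 0.0010). Of the Ckm exon bases 31.9% lie opposite an antisense gene, A930016O22Rik, whose median level was 0 CPM here. A pair of sarcomere giants moved less: Ttn, the spring that spans the sarcomere, by 1.42 (SE 0.51, adjusted p = 0.0440) and Neb, the ruler of the thin filament, by 1.30 (SE 0.43, adjusted p = 0.0259).

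Among the fast regulatory and motor genes, DTRADQ replicates 2 and 4 were again the highest libraries. Myl1, the essential light chain of fast myosin (chr1:66924295-66945404, minus strand), was at 12.3, 140, 20 and 48.1 CPM in DTRADQ and at 4.65, 3.16, 0.0903 and 0.532 CPM in Con at day 3, a log2 change of 4.70 (SE 1.20, adjusted p = 0.0046). Tnnt3, the troponin that ties the fast troponin complex to tropomyosin (chr7:142498836-142516009), was at 14.8, 112, 18.7 and 39.8 CPM against 4.06, 2.80, 0.858 and 0.900 CPM, a change of 4.42 (SE 0.97, adjusted p = 0.0011). Replicate 2 was highest and replicate 4 second in each of these DTRADQ quartets, and replicate 1 was highest among the Con libraries. Tnni2, the inhibitory fast troponin, changed less, by 1.58 (SE 0.33, adjusted p = 6.6e-04), from 7.47, 6.11, 5.01 and 6.26 CPM in Con to 11.4, 34.5, 9.65 and 18.8 CPM in DTRADQ. Its Con libraries lay close together and well above 0, so the base from which it differed was higher than that of Tnnt3. For Myl1, 11.7% of its stretches of 50 bases are shared with the pseudogene Mylf-ps, so its counts are uncertain to that extent.

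**Figure D2:**
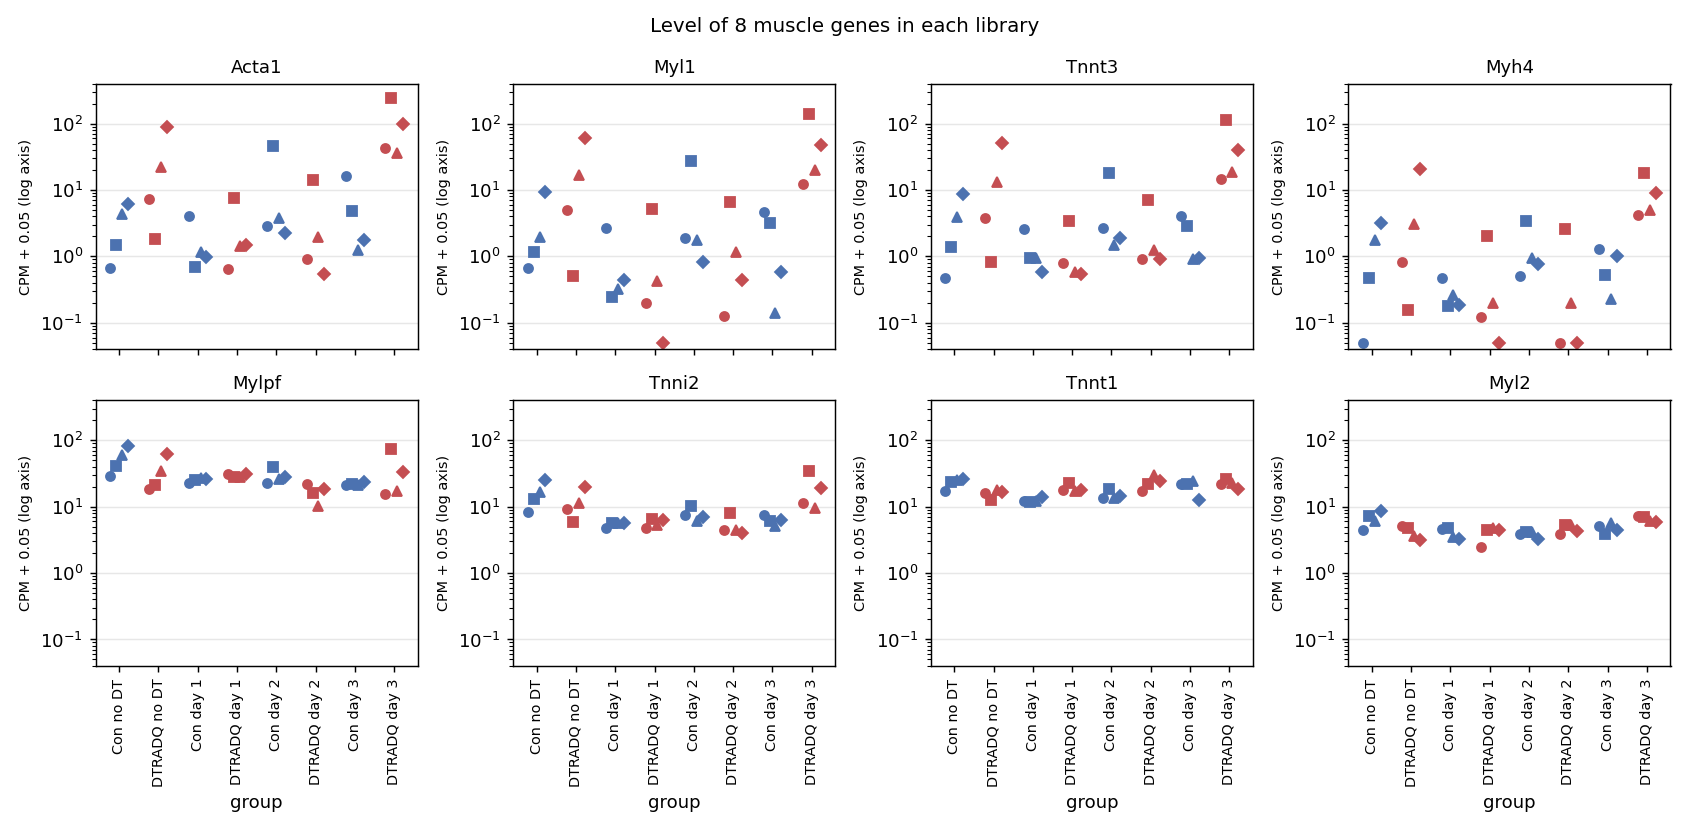
Level of 8 members in each library (TMM-scaled CPM plus 0.05, log axes), with Con in blue, DTRADQ in red and circle, square, triangle and diamond for replicates 1 to 4. Acta1, Myl1, Tnnt3 and Myh4 vary most between libraries and are high in the same libraries, while Tnnt1 stays between 11.7 and 30.2 CPM and Myl2 between 2.43 and 8.50 CPM.

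Among the adult myosin heavy chains, nearly all reads came from Myh4, the chain of the fastest fibers (IIB). Over the 32 libraries Myh4 collected 1288 counts in 28 libraries, Myh1 (IIX fibers) 87 counts in 18, Myh2 (IIA fibers) 27 in 13 and Myh7 (slow fibers) 15 in 6. At day 3 Myh4 was at 4.14, 18.2, 4.89 and 8.98 CPM in DTRADQ and at 1.24, 0.480, 0.181 and 0.982 CPM in Con, a log2 change of 3.63 (SE 1.01, adjusted p = 0.0089). Again no Con library reached the lowest DTRADQ library. Myh1 did not follow: its counts in DTRADQ at day 3 were 15, 3, 0 and 7 and those in Con were 12, 9, 1 and 1, and the group means were not tested because Myh1 did not pass the filter. Of the 15 Myh7 counts, 7 were in DTRADQ replicate 1 at day 3 and 4 in Con replicate 1 at day 3. In DTRADQ replicate 2 at day 3, with 328 Myh4 counts, Myh7 had none. Per kilobase, Myh4 made up 98.9% of the 4 heavy chains there against 77.8% in replicate 1. These genes are close copies of each other, and 25.4% of the 50-base stretches of Myh1, 22.9% of Myh2, 18.9% of Myh4 and 15.6% of Myh7 occur in another gene, so the split among them is uncertain.

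The 6 remaining fast genes called at day 3 handle calcium or build the Z-disc or the thick filament. Pvalb, the calcium buffer of fast fibers, changed by 4.50 (SE 1.08, adjusted p = 0.0026), and Casq1, which stores calcium in the sarcoplasmic reticulum, by 3.44 (SE 0.78, adjusted p = 0.0015). Atp2a1, the fast calcium pump, was at 3.32, 7.04, 2.58 and 5.86 CPM against 1.45, 1.80, 1.13 and 1.23 CPM, a change of 1.74 (SE 0.35, adjusted p = 4.1e-04). Its 4 DTRADQ libraries were all above the Con libraries, but 21.9% of its exon bases lie opposite Rabep2, and the strand setting of the counting is not given in the sources used here. The Z-disc proteins Actn3 and Myoz1 changed by 2.54 (SE 0.69, adjusted p = 0.0079) and 3.03 (SE 0.87, adjusted p = 0.0108), and the thick filament protein Mybpc2 by 1.36 (SE 0.38, adjusted p = 0.0087) with overlapping groups. Pvalb, Casq1, Atp2a1, Actn3, Myoz1 and Mybpc2 were described after their values were seen.

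Mylpf was the fast gene that did not pass at day 3. It encodes the regulatory light chain of fast myosin, and its levels were 15.2, 73.8, 17.3 and 32.7 CPM in DTRADQ and 21.3, 21.7, 21.1 and 23.2 CPM in Con (log2 change 0.67, SE 0.36, adjusted p = 0.1831). Replicates 2 and 4 of DTRADQ lay above every Con library and replicates 1 and 3 below every one. Unlike Myl1 and Tnnt3, Mylpf never dropped below 10 CPM in any library, and its highest level, 82 CPM, was in Con replicate 4 without DT. Tnnc2, the calcium sensor of fast troponin, was not tested. It read 0.600, 2.49, 0.595 and 0.928 CPM in DTRADQ and 0.0854, 0.280, 0 and 0 CPM in Con, but 74.0% of its exon bases lie opposite Ube2c, a gene with a median of 242 CPM.

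Shared genes outside the sarcomere core split into those that passed and those that did not. Pygm, the glycogen phosphorylase of muscle, was higher in DTRADQ, going from 1.88, 4.00, 2.30 and 3.68 CPM in Con to 3.82, 6.76, 4.69 and 5.32 CPM in DTRADQ, with 0.79 on the log2 scale (SE 0.24, adjusted p = 0.0162) and overlapping groups. The call on Pygm was lost without DTRADQ replicate 2 (adjusted p = 0.0846), Con replicate 1 (0.0762) or Con replicate 3 (0.0549). It was also lost with library totals as the scale. Its adjusted p ran from 0.0021 to 0.0846 over the 16 alternatives. Eno3, the enolase of muscle glycolysis, was at 14.5, 43.4, 15.9 and 24.2 CPM against 15.6, 10.2, 21 and 13 CPM (log2 change 0.71, SE 0.32, adjusted p = 0.1105), and only replicates 2 and 4 stood above the Con range. Myot, a Z-disc protein, and Trdn, which anchors the calcium release complex, changed by 3.38 (SE 0.82, adjusted p = 0.0029) and 2.62 (SE 0.83, adjusted p = 0.0207), but both passed the filter only through this group, so these values are a description. The oxygen store Mb (0.95, SE 0.89, adjusted p = 0.4795), the release channel Ryr1 (-0.26, SE 0.28, adjusted p = 0.5386) and the Z-disc actinin Actn2 (-1.15, SE 0.67, adjusted p = 0.2212) did not pass. Mb was highest at 3.49 CPM in DTRADQ replicate 1 at day 3, where Myh7 and Myl3 were highest too, and was at 1.38 CPM in replicate 2. Of the untested shared genes, Tcap had 9, 20, 6 and 8 counts in DTRADQ and 8, 1, 4 and 2 in Con, Des had 10, 36, 10 and 24 against 11, 19, 3 and 10, and Cacna1s had 4, 5, 1 and 8 against 4, 6, 5 and 7.

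None of the 4 tested slow genes passed at day 3. Tnnt1, the slow counterpart of Tnnt3 (chr7:4504570-4516382, minus strand), was at 22.1, 26.4, 22.5 and 18.5 CPM in DTRADQ and at 21.6, 21.9, 24.4 and 12.6 CPM in Con (log2 change 0.15, SE 0.18, adjusted p = 0.5750). Its groups overlapped, with the lowest library in Con and the highest in DTRADQ. Myl2, the slow regulatory light chain that the heart also uses, was at 7.19, 6.98, 5.95 and 5.76 CPM against 4.99, 3.88, 5.60 and 4.46 CPM, which did not overlap but missed the threshold (0.45, SE 0.20, adjusted p = 0.1044). It passed in the fit of the compared groups alone (adjusted p = 0.0386) and with voom (0.0081), within a range of 0.0081 to 0.2607 over 16 alternatives. Tnnc1, the calcium sensor of slow and cardiac troponin, was at 2.34, 2.05, 0.793 and 0.781 CPM against 2.05, 1.60, 1.13 and 0.736 CPM (0.12, SE 0.40, adjusted p = 0.8631). Tnni1, the inhibitory slow troponin, was at 0.545, 0.720, 0.132 and 0.635 CPM against 0.555, 0.839, 1.04 and 0.123 CPM (-0.29, SE 0.59, adjusted p = 0.7665). The untested Myl3 and Mybpc1 had 12, 2, 1 and 1 counts and 17, 5, 0 and 2 counts in DTRADQ, against 5, 10, 0 and 1 and 7, 5, 2 and 7 in Con.

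**Figure D3:**
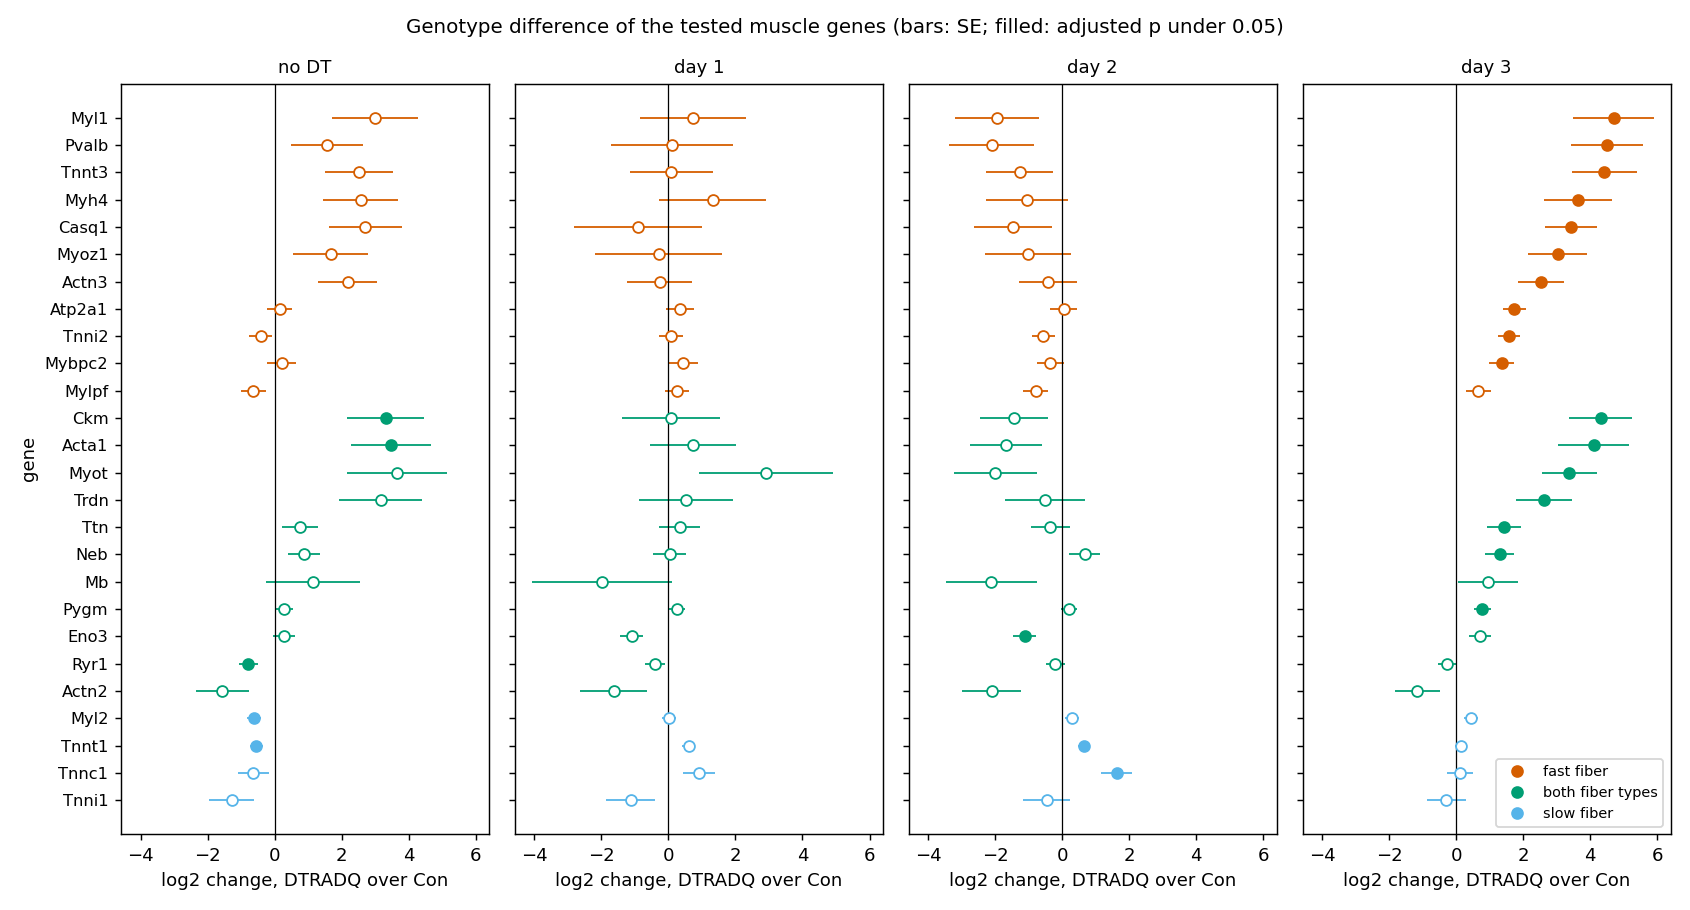
Log2 change between DTRADQ and Con of the 26 tested members without DT and at days 1, 2 and 3, with bars for the SE and filled points for an adjusted p under 0.05. At day 3 the fast genes reach up to 4.70 and 17 points are filled, none of them among the slow genes, whose values lie between -0.29 and 0.45.

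The day 3 calls did not rest on 1 library, although their number did. Across 16 alternatives 12 of the 17 genes were called every time, and Myoz1, Neb, Pygm, Trdn and Ttn were lost in at least 1 of them. The 12 include Myot, which passed the filter only through DTRADQ day 3, so its calls are a description. Without DTRADQ replicate 2, the library with the highest sums, 12 genes were called, and with DESeq2 15 were. The count stayed at 17 without Con replicates 3 and 4 of the untreated mice. Replicate 2 of DTRADQ also set the size of the differences: without it, the log2 change was 3.28 for Acta1 (adjusted p = 0.0301), 3.66 for Myl1 (0.0330), 3.50 for Tnnt3 (0.0099), 3.50 for Ckm (0.0093) and 3.05 for Myh4 (0.0431). Without Con replicate 1, the change of Acta1 was 5.32 (adjusted p = 0.0031) and that of Myl1 5.41 (0.0079).

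The promoter stretches of a shared gene, a fast gene and a slow gene are shown because Acta1 and Myh4 varied widely between libraries and Tnnt1 varied little. They are the 250 bases before the transcript start that the RefSeq table gives, on the gene's own strand, 5′ to 3′, on GRCm38.p6, at chr8:123894776-123895025 (minus strand) for Acta1, chr11:67237562-67237811 (plus strand) for Myh4 and chr7:4515976-4516225 (minus strand) for Tnnt1. Capitals mark matches to TATAAA (searched on the gene's strand), to CAGCTG, an E-box of the kind bound by the MyoD family, and to the MEF2 and CArG motifs, the last 3 searched on both strands.
Acta1: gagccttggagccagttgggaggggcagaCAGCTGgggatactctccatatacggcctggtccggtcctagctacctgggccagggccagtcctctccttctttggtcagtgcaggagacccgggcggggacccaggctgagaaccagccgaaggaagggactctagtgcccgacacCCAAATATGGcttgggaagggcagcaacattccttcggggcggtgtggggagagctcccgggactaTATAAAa
Myh4: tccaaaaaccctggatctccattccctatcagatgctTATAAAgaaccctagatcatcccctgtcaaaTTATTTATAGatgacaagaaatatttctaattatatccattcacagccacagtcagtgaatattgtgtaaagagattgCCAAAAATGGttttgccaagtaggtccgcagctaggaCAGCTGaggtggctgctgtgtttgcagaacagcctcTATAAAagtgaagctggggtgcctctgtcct
Tnnt1: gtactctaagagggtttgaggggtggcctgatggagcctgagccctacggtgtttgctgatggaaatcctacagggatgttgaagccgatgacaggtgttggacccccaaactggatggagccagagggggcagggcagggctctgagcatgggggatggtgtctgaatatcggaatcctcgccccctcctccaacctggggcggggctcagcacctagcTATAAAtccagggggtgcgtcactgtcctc
RefSeq starts differ from the gene ends of the GENCODE annotation used for the other coordinates, so the Tnnt1 stretch lies inside the GENCODE gene and those of Acta1 and Myh4 lie a short way outside theirs. The Acta1 stretch holds CAGCTG 221 to 216 bases, a CArG match 73 to 64 bases and TATAAA 7 to 2 bases before the RefSeq start. Myh4 holds a MEF2 match 182 to 173, a CArG match 104 to 95 and CAGCTG 67 to 62 bases before it, with TATAAA at 213 to 208 and at 31 to 26. In Tnnt1 only TATAAA matched, 30 to 25 bases before the start. Of the 27 members matched in the RefSeq table, 14 (51.9%) had CAGCTG in a promoter, against 14.7% of 27025 genes. MEF2 matched in 4 (14.8%) against 3.42%, CArG in 3 (11.1%) against 1.62%, and TATAAA in 4 (14.8%) against 8.94%. CAGCTG was found in 5 of 10 fast, 3 of 7 slow and 6 of 10 shared members, so the match did not separate the classes. A match is a run of letters and not a measured site.

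Without DT, the genotypes differed in 5 members, a share below the 27.1% of all genes called in that comparison. Acta1 and Ckm were higher in DTRADQ, by 3.48 (SE 1.20, adjusted p = 0.0303) and 3.32 (SE 1.15, adjusted p = 0.0311), and Myl2, Tnnt1 and Ryr1 were lower, by -0.62, -0.54 and -0.78. The libraries overlapped for all 26 tested members, while 5.64% of all genes were higher without overlap. Ckm was at 0.933, 0.673, 5.47 and 18.4 CPM in DTRADQ and at 0.278, 0.253, 1.02 and 1.58 CPM in Con, so the difference was carried by DTRADQ replicates 3 and 4. Tnnt1 was at 16, 12.4, 17.8 and 16.4 CPM in DTRADQ and at 17.2, 23.6, 24.7 and 25.9 CPM in Con. Myl1 was at 4.98, 0.466, 16.6 and 60.6 CPM in DTRADQ against 0.625, 1.10, 1.89 and 9.29 CPM in Con (2.99, SE 1.28, adjusted p = 0.0796), and Tnnt3 at 3.78, 0.777, 13.1 and 50.7 CPM against 0.417, 1.35, 3.92 and 8.70 CPM (2.51, SE 1.01, adjusted p = 0.0634). Both missed the threshold with DTRADQ replicates 3 and 4 high and replicate 2 as low as Con.

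Which members were called without DT depended on single libraries. Acta1 and Ckm were lost without DTRADQ replicate 4 (adjusted p = 0.2365 and 0.2533) or without any of Con replicates 1, 2 and 3, where the adjusted p of Acta1 ran from 0.0593 to 0.0720. No member was called without Con replicate 3 (edgeR quasi-likelihood test), without Con replicates 3 and 4 together, or in a fit of these groups alone, in which 0 of all genes passed. Leaving out DTRADQ replicate 2 raised the count to 10, and Con replicate 2 lowered it to 1. With library totals as the scale, which puts the median of all genes at 0.41, 12 members were called higher and none lower, and the changes of Tnnt1 and Myl2 shrank to -0.08 and -0.16.

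After 1 day of DT no member was called by edgeR (3.90% of all genes were, with 3.02% lower), 2 members had an unadjusted p under 0.05, and DESeq2 called 2 and voom 1. The fast sums were 33.5 to 36.8 CPM in Con and 37.1 to 49.8 CPM in DTRADQ. In Con these were the most even of all groups, with Acta1 between 0.639 and 3.99 CPM and Myl1 between 0.192 and 2.64 CPM. Tnnt1 was at 17.9, 22.5, 17.1 and 17.5 CPM in DTRADQ and at 11.9, 11.7, 12.1 and 13.8 CPM in Con, without overlap (5.08% of all genes were higher without overlap), and missed the threshold (0.60, SE 0.18, adjusted p = 0.0609). Eno3 was at 4.85, 7.22, 8.53 and 3.78 CPM against 12.5, 19.2, 10.4 and 10.3 CPM, also without overlap (-1.10, SE 0.35, adjusted p = 0.0747). Both passed in some alternatives, among them DESeq2 at 0.0337 for Tnnt1 and 0.0374 for Eno3, and the adjusted p of the fit without Con replicates 3 and 4 of the untreated group was 0.0371 and 0.0412. Over the 16 alternatives the adjusted p ran from 0.0140 to 0.2189 for Tnnt1 and from 0.0171 to 0.2511 for Eno3.

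After 2 days, the fast genes were not higher in DTRADQ. Tnnc1 and Tnnt1 were called higher and Eno3 lower, 3 of 26 beside 8.52% of all genes (4.40% higher, 4.12% lower). Tnnt1 was at 16.9, 22.2, 30.2 and 24.3 CPM in DTRADQ and at 13.5, 18.3, 13.3 and 14.6 CPM in Con (0.65, SE 0.18, adjusted p = 0.0228), with replicate 1 of DTRADQ inside the Con range. Tnnc1 was at 0.779, 1.57, 2.35 and 2.45 CPM against 0.174, 1.04, 0.517 and 0.591 CPM (1.62, SE 0.46, adjusted p = 0.0253). Eno3 was at 4.52, 8.48, 6.99 and 7.93 CPM against 15.4, 22.8, 11.9 and 10.4 CPM (-1.12, SE 0.35, adjusted p = 0.0388), without overlap. Mylpf was lower without overlap too, at 22.2, 16.1, 10 and 18.1 CPM against 22.7, 38.8, 25.8 and 27.8 CPM, and missed the threshold (-0.79, SE 0.37, adjusted p = 0.1761). Of all genes 10.7% were higher without overlap at day 2, and the share lower without overlap was not counted. At day 1 Mylpf had been higher without overlap, at 27.7 to 31.4 CPM against 22.6 to 26.6 CPM (0.25, SE 0.36, adjusted p = 0.7916 by edgeR). Acta1 had its high library on the Con side, at 2.78, 45.9, 3.68 and 2.23 CPM against 0.857, 13.9, 1.91 and 0.489 CPM in DTRADQ (-1.68, SE 1.08, adjusted p = 0.3440). None of the 3 was called when DTRADQ replicate 3, Con replicate 1 or Con replicate 3 was left out, and 1 was called without DTRADQ replicate 4 or Con replicate 4.

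Within DTRADQ, the levels without DT were themselves uneven, and this set what the comparison with them could show. At day 1, 6 members were lower than without DT (Tnnt3, Casq1, Pvalb, Ckm, Ttn and Eno3, beside 5.48% of all genes, 4.22% lower and 1.26% higher). At day 2, Tnni2, Ttn and Eno3 were lower and Tnnt1 higher (9.11% of all genes, 4.27% higher and 4.85% lower), and at day 3 Atp2a1, Myl2 and Tnnt1 were higher, 3 of 26 beside 12.5% of all genes called higher (29.4% in either direction). Acta1 at day 3 averaged 104 ± 95.2 CPM against 29.6 ± 39.5 CPM without DT (SD, n = 4 each), a log2 change of 1.83 (SE 0.96, adjusted p = 0.1529). Leaving out DTRADQ replicate 4 without DT turned the 3 calls of day 3 into 18, all higher, and the 6 calls of day 1 into 0. The calls of day 2 also went to 0 without it, or without DTRADQ replicate 3 at day 2. Those of day 1 went to 0 without DTRADQ replicate 4 at day 1 and to 1 without replicate 1 or 3. Day 3 had 1 call without replicate 2 or 3 of the untreated DTRADQ mice or without DTRADQ replicate 2 at day 3. Lane and day 3 cannot be told apart in this comparison, because the labels give all day 3 libraries lane 8.

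Within Con, 8 members were lower at day 1 than without DT, 4 at day 2 and 2 at day 3, while 17.4%, 14.4% and 15.4% of all genes were called lower (33.4%, 28.3% and 30.2% in either direction). They included Tnni2 on each day (-1.49, -0.99 and -1.29), Tnnt1 and Myl2 at days 1 and 2, and Mylpf at days 1 and 3. Tnni2 without DT was at 8.26, 13.2, 16.3 and 24.7 CPM, with the highest levels in replicates 3 and 4. Without both of those libraries the counts were 1, 0 and 0. With library totals as the scale, which puts the median of all genes at 0.46, 0.55 and 0.46, 1 member was lower at day 1, 5 were higher at day 2 and none was called at day 3.

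The test of whether the genotype difference itself changed from no DT to each day (genotype by DT) called few members. It called Tnnt1 at day 1 (1.14, SE 0.26, adjusted p = 0.0039), beside 12.3% of all genes (6.51% upward, 5.83% downward). At day 2 (11.1% of all genes, 6.22% upward and 4.88% downward) it called Tnnt1 (1.19, SE 0.26, adjusted p = 0.0031) and Tnnc1 (2.25, SE 0.65, adjusted p = 0.0231) upward, and Acta1 (-5.16, SE 1.62, adjusted p = 0.0358) and Ckm (-4.76, SE 1.54, adjusted p = 0.0425) downward. At day 3 (21.0%) it called Tnni2 (2.01, SE 0.47, adjusted p = 0.0027), Atp2a1 (1.59, SE 0.51, adjusted p = 0.0248), Myl2 (1.08, SE 0.29, adjusted p = 0.0089) and Tnnt1 (0.69, SE 0.25, adjusted p = 0.0498). Acta1, Myl1, Tnnt3 and Myh4 did not pass at day 3 in this test, with 0.63 (SE 1.57), 1.71 (SE 1.73), 1.91 (SE 1.38) and 1.06 (SE 1.54). Thus the 4.11 of Acta1 at day 3 was not shown to differ from its 3.48 without DT. Without Con replicates 3 and 4 of the untreated mice the test called 1, 6 and 3 members on the 3 days, and with library totals as the scale 1 (lower), 13 (12 of them lower) and 1 (higher).

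Members differed between libraries of 1 group more than most genes did. The median biological coefficient of variation was 0.515 over the 26 tested members against 0.19 over all genes, and 16 of the 26 lay above the 95th percentile of all genes. In DTRADQ without DT, replicate 4 was the highest library for 14 of 14 fast genes, in Con without DT replicate 4 for 13 of 14, in Con at day 2 replicate 2 for 13 of 14 and in DTRADQ at day 3 replicate 2 for 11 of 14. The high libraries were high for many members at once, and over all 32 libraries 15 members peaked in DTRADQ replicate 2 at day 3. The correlation of a gene with the mean of the other tested members, over the 32 libraries and as a description, was 0.975 for Tnnt3, 0.965 for Pvalb, 0.957 for Ckm and 0.954 for Acta1 and Myl1. It was 0.343 for Tnnt1, 0.368 for Myl2, 0.295 for Tnnc1, 0.050 for Tnni1, 0.182 for Ryr1 and 0.142 for Actn2, and 0.424 for Mylpf.

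In the 12 libraries with 100 or more Acta1 counts, chosen after the values were seen so that ratios could be read, 5 of the fast and shared genes were set against Acta1 together with Mb and the slow Tnnt1 and Myl2. Myl1 counts were 28.5% to 76.2% of the Acta1 counts, Tnnt3 24.8% to 60.2%, Ckm 10.2% to 28.9%, Myh4 7.33% to 26.0% and Pvalb 5.48% to 23.6%, ranges of 2.43-fold to 4.31-fold. These 5 genes and Acta1 had the highest correlations with the other members, so their ranges do not stand for all fast genes. Acta1 had 4354 counts in DTRADQ replicate 2 at day 3 and 121 in Con replicate 2 at day 3. In the same libraries the fast genes Mylpf (1332 and 542 counts), Tnni2 (623 and 153) and Atp2a1 (127 and 45) kept no such proportion. The shared gene Mb also kept no such proportion and ran from 0% to 33.9%. Of the slow genes, Tnnt1 ran from 10.9% to 452% of Acta1, a 41.5-fold range, and Myl2 from 2.89% to 80.2%, a 27.8-fold range. Counts per gene depend on length, so these percentages compare libraries and not genes.

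**Figure D4:**
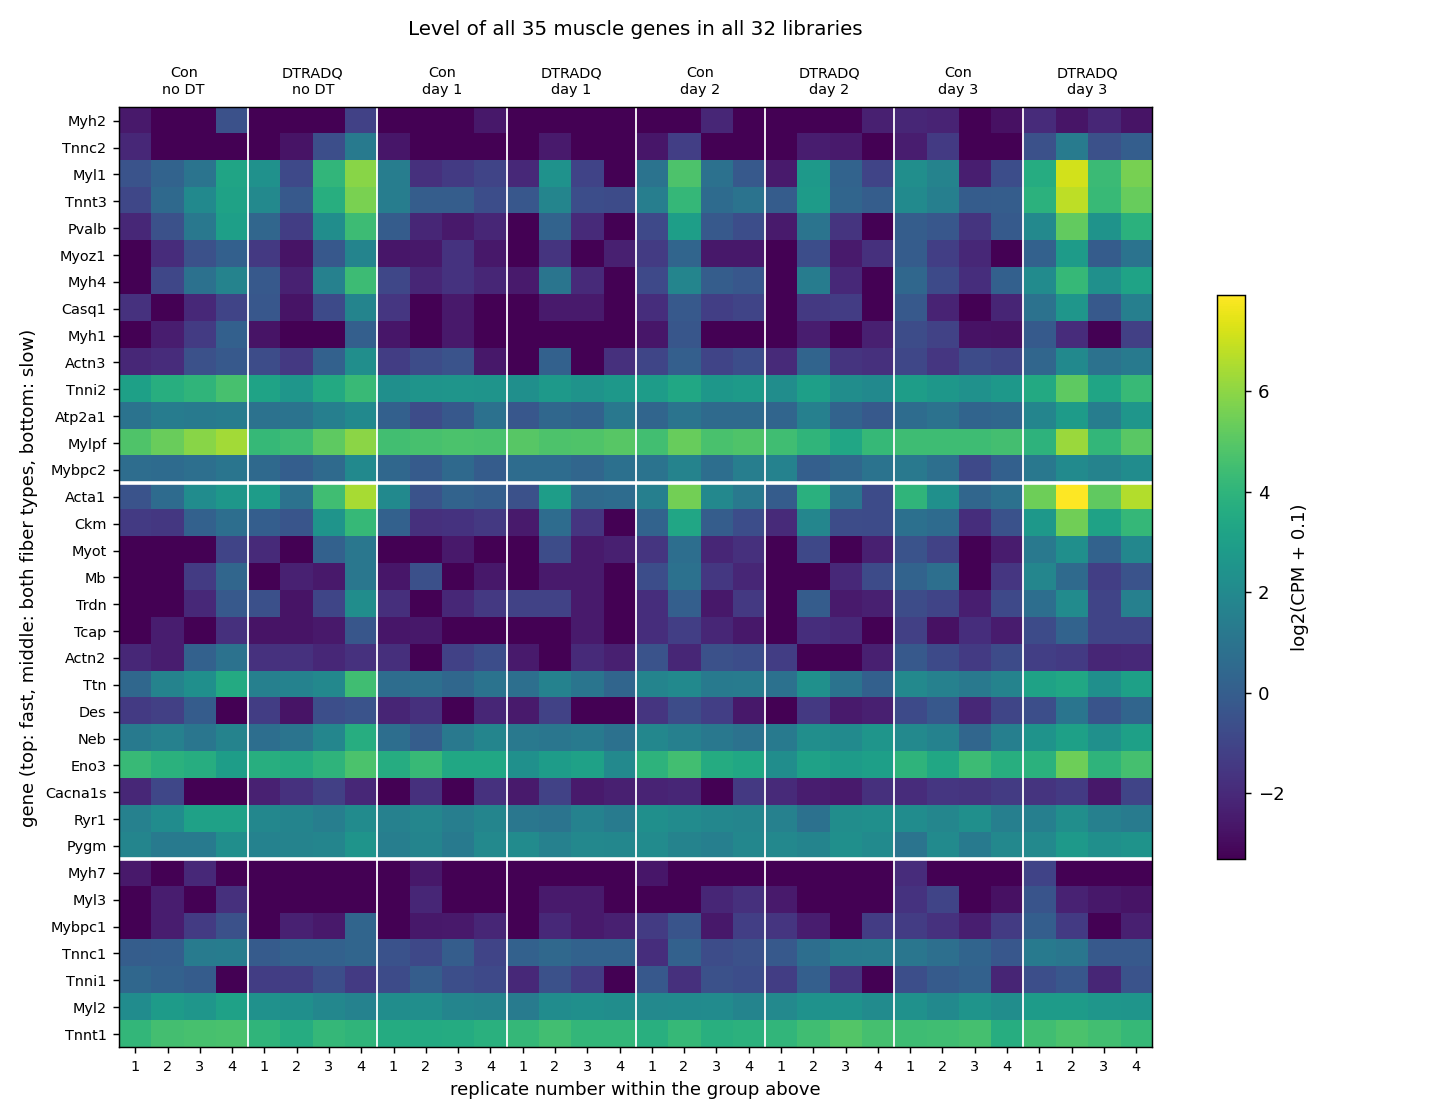
Level of all 35 members (rows; fast at the top, shared in the middle, slow at the bottom) in all 32 libraries (columns, by group and replicate), as log2 of TMM-scaled CPM plus 0.1. Myl1, Tnnt3, Acta1 and Ckm are high in DTRADQ at day 3, in DTRADQ replicate 4 without DT and in Con replicate 2 at day 2, and the rows of Tnnt1 and Myl2 are even across the plot.

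Muscle genes outside the 35 were read from lists of the sarcomere and Z-disc, of excitation and calcium, and of muscle energy. Of 58 such genes, 24 were tested, and at day 3 10 were higher in DTRADQ and 4 lower. Among all genes 8.80% were called higher and 14.1% lower. The median log2 change was 0.65 beside -0.02 for all genes. The Z-disc protein Ldb3 changed by 3.11 (SE 0.70, adjusted p = 0.0013), the muscle phosphoglycerate mutase Pgam2 by 2.28 (SE 0.47, adjusted p = 6.5e-04) and the mitochondrial creatine kinase Ckmt2 by 2.16 (SE 0.78, adjusted p = 0.0424). Ldb3, Xirp2, Smpx and Cox8b passed the filter only through the DTRADQ day 3 libraries, in which they were high. Their day 3 values, and their part in the counts and median above, are therefore a description. Counts without them were not made. Lower were Slc2a4, the insulin-regulated glucose carrier that fat cells also use (-2.32, SE 0.31, adjusted p = 2.0e-06), as well as Pln, Asph and Pfkm. Chosen only by likeness to the mean of the 26 tested members over the 32 libraries, the 10 closest genes outside the set were Smpx (Pearson r 0.918), Cox8b (0.915), Ckmt2 (0.895), Pgam2 (0.887), Xirp2 (0.868), Ldb3 (0.866), Klhl31 (0.866), Ak1 (0.821), Pkia (0.813) and Col1a2 (0.809). Smpx, Cox8b, Ckmt2, Pgam2, Xirp2 and Ldb3 are on those lists, and Col1a2 encodes a chain of type I collagen. The libraries share their groups and their depth, so these values are descriptions.

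Markers of muscle precursors were nearly absent. Over all 32 libraries Myod1 and Myf5, which commit cells to the muscle lineage, had 2 counts each, Myog, the factor of differentiation, had 4, and the embryonic heavy chains Myh3 and Myh8 had 0 and 1. Pax7, the satellite cell factor, had 87 counts, with 3 in DTRADQ at day 3 and 20 in Con without DT. Myf6, the member of the family kept in adult fibers, had 29 counts in 6 libraries, 17 of them in DTRADQ at day 3, 8 in DTRADQ without DT and 4 in Con at day 2. Of the 8 heart genes Myh6 and Nppb had no count, Myl7 had 1, and the summed level was 0.198 to 2.91 CPM over all libraries.

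Sums of smooth muscle, tendon, cartilage and nerve sheath genes did not overlap between the genotypes at day 3, and those of bone and synapse genes did. The 9 smooth muscle genes summed to 203 to 274 CPM in DTRADQ against 45.8 to 56.7 CPM in Con. Of these genes 6 were tested and 4 were called higher, beside 8.80% of all genes. At day 2 they summed to 65.0 to 148 against 46.9 to 76.2 CPM. The 6 tendon genes summed to 2.38 to 3.86 CPM against 0.555 to 0.999 CPM, and the 5 cartilage genes to 2.12 to 5.03 against 0.679 to 1.27 CPM. The 8 bone genes summed to 200 to 306 CPM against 167 to 253 CPM, which overlapped, with Col1a1 higher and Ibsp and Phex lower. In DTRADQ replicate 2, the library with the most muscle RNA at day 3, the smooth muscle, tendon, cartilage and bone sums were 232, 3.32, 3.93 and 245 CPM, all inside the range of replicates 1, 3 and 4. The 5 nerve sheath genes summed to 51.3 to 62.6 CPM in DTRADQ and 41.4 to 46.6 CPM in Con, and the 6 genes of the nerve-muscle synapse to 2.31 to 3.77 and 2.01 to 3.34 CPM. Their part in the muscle result, and that of muscle tissue carried over with the bone, was not tested.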

How the data were processed

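RNA of whole femur marrow from 32 mice (8 groups of 4) was sequenced after Trizol and RNeasy extraction and SMARTer amplification, per the labels' protocols. STAR 2.0.4b, Subread, featureCounts 1.45 and GRCm38 are named in the submitters' processing notes. Which strand and multimapping settings were used is not stated in those notes. The deposited tables hold raw counts, CPM and RPKM per gene. The deposited CPM equalled counts per library total within 4.4e-10, and the deposited RPKM matched counts per total and length within a relative 3.8e-14. The tests used the counts. Levels in the text were rescaled here with TMM factors. Symbols were assigned to 97.26% of 41388 genes.

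Genes passing filterByExpr (minimum count 10, 14527 genes) were fitted with edgeR 4.0.16 in R 4.3.3 (glmQLFit and glmQLFTest, 8 group means over 32 libraries), giving 13 contrasts with Benjamini-Hochberg adjustment and a threshold of 0.05. SE came from the log2 change and the F value of its test (change over the root of F). DESeq2 1.42.0, limma 3.58.1 (voom) and other scalings, filters and left-out libraries were alternatives, and leaving out Con replicates 3 and 4 without DT was chosen after seeing the data. The procedure was tested on simulated data.

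The members and lists were chosen with earlier results of these data known. Genes described one by one were the myosin heavy chains, the fast and slow light chains and troponins, Ckm, Acta1, Pygm and Eno3. Others were named after their values were seen. Each library is 1 mouse per the labels, and no replicate pair agreed within counting noise (chi-square per gene of 8.88 or more in 48 pairs).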

Additional observations from a re-analysis of the deposited data

Results flagged for a closer look

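In groups with at least 20 counts of a described gene, the highest or lowest library was compared with the others of its group of 4. Of 105 such groups, 26 held a library far from the rest. Many genes were flagged in the same library, so the 26 are not independent, and their number cannot be set against chance. The flag of Tnni1 in DTRADQ replicate 3 without DT rests on 8 reads. DTRADQ replicate 2 at day 1 stood high for Acta1 (7.59 CPM), Myl1 (5.18), Tnnt3 (3.36), Myh4 (1.97), Ckm (1.46), Tnnc1 (1.31) and Tnnt1 (22.5). Con replicate 2 at day 2 stood high for Acta1 (45.9 CPM), Myl1 (27.1), Tnnt3 (17.7), Ckm (9.96) and Myh4 (3.36). DTRADQ replicate 2 at day 2 stood high for Acta1 (13.9 CPM), Tnni2 (7.95), Tnnt3 (6.99), Myl1 (6.64), Ckm (3.5) and Myh4 (2.53). Con replicate 1 at day 1 stood high for Acta1 (3.99 CPM), Myl1 (2.64) and Ckm (1.04) and low for Tnni2 (4.78). Without DT, DTRADQ replicate 4 stood high for Myh4 (21 CPM) and Pygm (5.54), DTRADQ replicate 3 for Tnni1 (0.547) and Con replicate 4 for Myl1 (9.29).

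The genotype difference changed between no DT and a day of DT for 9 gene and day pairs, by the test of the difference itself. On the log2 scale these were Tnnt1 at day 1 (1.14), day 2 (1.19) and day 3 (0.69), Tnnc1 at day 2 (2.25), Acta1 and Ckm at day 2 (-5.16 and -4.76), and Tnni2, Atp2a1 and Myl2 at day 3 (2.01, 1.59 and 1.08).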

How the results depend on the processing

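The day 3 genotype count of 17 members ran from 15 to 19 over the alternatives that keep all day 3 libraries and from 12 to 17 with a library left out, all higher. These counts include Myot, and Trdn where it was called, which passed the filter only through DTRADQ day 3. The other counts moved more. Without DT, the genotype count of 5 was 12 with library totals, 10 without the filter, 8 with the replicate block, 2 with voom, and 0 in the fit of the compared groups or without Con replicates 3 and 4. At day 1 the count of 0 was 1 with library totals, without the filter or with voom, and 2 with DESeq2, in the compared groups alone or without Con 3 and 4. At day 2 the count of 3 was 5 with library totals. Within DTRADQ, the counts of 6, 4 and 3 on days 1, 2 and 3 were 12, 9 and 1 with library totals, 11, 12 and 5 without the filter, 1, 2 and 19 with voom, and 10, 8 and 5 without Con 3 and 4. Within Con, the counts of 8, 4 and 2 became 1, 5 and 0 with library totals (the 5 higher, the 4 lower), 2 and 0 on days 1 and 2 in the compared groups, 4 and 2 there with voom, and 1, 0 and 0 without Con 3 and 4. The genotype by DT count of 1 at day 1 was 2 without the filter and with DESeq2, the 4 at day 2 was 13 with library totals, 8 without the filter, 1 in the compared groups and 2 with voom, and the 4 at day 3 was 1 with library totals. With 1 library left out, the ranges were 0 to 10, 0 to 0 and 0 to 3 for the genotype without DT and at days 1 and 2, then 0 to 11, 0 to 7 and 1 to 18 within DTRADQ, 3 to 8, 1 to 6 and 1 to 4 within Con, and 1 to 4, 1 to 9 and 2 to 8 for genotype by DT. The cause was not tested.

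Library totals moved the median of all genes by 0.41, -0.25, -0.36 and -0.18 for the genotype without DT and at days 1, 2 and 3, and the share of calls that were higher from 46.9%, 22.8%, 51.6% and 38.4% to 88.3%, 2.6%, 4.3% and 14.4%. The number of all genes called, 3944, 567, 1238 and 3330, was 0, 1010, 2621 and 5143 in the compared groups alone, 4107, 2150, 3608 and 5724 with voom, and 1900, 1340, 2887 and 4991 without Con 3 and 4. Of the single-gene values under the alternatives, 747 kept direction and side of the threshold, 53 lost the call, 32 gained it and none reversed.

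Replicate numbers were not taken to pair the samples, because not every pair correlated over 0.1: over 112 pairs with the same number the mean correlation of deviations was 0.060 (-0.157 to 0.356) against -0.020 for other pairs, and 37 pairs were over 0.1. As a hint from the data and not from the design, 21 of 32 libraries were closest to a library with their own number. With the replicate block the genotype count without DT was 8 against 5, that of DTRADQ at day 2 was 7 against 4, and that of genotype by DT at day 1 was 2 against 1. Genes with few counts, such as Myh1, Myh2 and Myh7, were limited by depth.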
